A study of Rattus norvegicus with 6 samples.

Results

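Genes of the NF-κB pathway and of the kinase arm of IRE1 were examined in INS-1 cells that make a misfolded proinsulin. They were chosen by symbol as Nfkb1, Nfkb2, Nfkbia, Rela, Relb, Tnfaip3, Traf2, Map3k5, Cxcl1 and Ccl2, a list of 10 genes. Of these, 7 had a probeset mapped to that symbol alone, each of them exactly 1, among 12603 genes measured. Map3k5, Cxcl1 and Ccl2 had no such probeset and were not analysed here. INS-1 cells derive from a rat insulinoma and stand in for pancreatic β-cells, and those used here were a single clone with insulin 2 C96Y (the Akita mutation) fused to GFP under a doxycycline-inducible (Dox) promoter. The groups were cells given Dox with 5 μM 4μ8c (Dox+4μ8c), a compound that blocks RNA cleavage by IRE1, cells given Dox alone, and untreated cells, with 48 h of treatment. Each group had 1 Affymetrix array in each of 2 independent experiments, 6 arrays in all. The labels give Dox at 4 μg/ml, whereas the methods of the study state a lower concentration. All groups carried the transgene, so that an effect of Dox itself cannot be told apart from that of the mutant proinsulin, and no arrays of 4μ8c without Dox were analysed here.

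NF-κB is a family of dimeric transcription factors built from Rela (p65), Relb, c-Rel and the products of Nfkb1 (p105/p50) and Nfkb2 (p100/p52). In resting cells the dimers are held in the cytosol by IκB proteins such as IκBα, the product of Nfkbia, until the IκB kinase complex marks the IκB for degradation. The freed dimers switch on inflammatory genes and also their own brakes, among them Nfkbia and the ubiquitin-editing enzyme A20 (Tnfaip3). Under ER stress the cytosolic domain of IRE1 can recruit the adaptor TRAF2, which links it to the kinase ASK1 (Map3k5) and JNK on the one hand and to the IκB kinases on the other. In β-cells NF-κB is best known for its activation by interleukin-1β, where Cxcl1 and Ccl2 are among the chemokines it induces. The steps that activate the pathway act on proteins, whereas the arrays measured mRNA.

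The deposited values are log2 RMA signals centred for each probeset. The median of the 3 arrays was 0 for every probeset in experiment 1 but for 0.84% of them in experiment 2, where the baseline is unknown, so that values of different experiments share no sure zero and each difference was taken within an experiment. Therefore the values hold differences between arrays of the same experiment but no signal levels (all values below are centred log2 values and all differences are log2 differences), so that it cannot be said which of these mRNAs, or which cell type markers, were above background. In experiment 1 at least 2 of the 3 arrays had exactly the same value in 57.2% of probesets and all 3 did in 25.5%, compared with 0.632% and 0.00393% in experiment 2. Among the genes examined, the Dox+4μ8c array equalled the untreated array for Nfkbia, and the Dox array for Relb and Tnfaip3, in experiment 1. What the ties do to these values was not tested. Within experiment 2 the Dox array had an SD over all probesets of 0.18, against 0.087 with Dox+4μ8c and 0.11 in untreated cells. SDs cannot be compared between the experiments, whose values were centred differently. As checks of the treatments, Trib3 of the integrated stress response differed from untreated by 2.80 with Dox+4μ8c (adjusted p = 0.00019) and by 2.88 with Dox (adjusted p = 0.00016). Dnajb9, an Xbp1 target that encodes an ER co-chaperone, differed by -1.05 between Dox+4μ8c and Dox (adjusted p = 0.013), and by 1.25 between Dox and untreated (adjusted p = 0.0024). Its difference between Dox+4μ8c and Dox did not pass after quantile normalization (adjusted p = 0.13), and was -1.21 and -0.88 without Dox+4μ8c replicates 1 and 2. These and all later p-values come from limma, with a term for the experiment, and adjusted ones from Benjamini-Hochberg over all 12603 genes, and a gene passed at an adjusted p under 0.05.

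None of the 7 genes passed the test in any comparison. With Dox against untreated 0 of 7 passed, where 6.43% of all genes did, and 2 of 7 (Nfkbia and Tnfaip3) had an unadjusted p under 0.05, where 19.6% of all genes did. With Dox+4μ8c against untreated 0 of 7 passed (2.3% of all genes), and 0 of 7 had an unadjusted p under 0.05 (15.4%). With Dox+4μ8c against Dox 0 of 7 passed (1.79% of all genes), and 2 of 7 (Nfkbia and Traf2) had an unadjusted p under 0.05 (11.2%). The changes were small as well as uncertain. All 21 of the 95% intervals, 3 for each gene, lay inside a 1.5 fold change in either direction, as did those of 98.6%, 98.4% and 97.0% of all genes for Dox+4μ8c against untreated, Dox+4μ8c against Dox and Dox against untreated. With Dox, 5 of the 7 genes were above untreated in both experiments, where 26.6% of all genes were, and 0 of 7 were below it in both (24.8%). The median difference was 0.094 over the 7 genes and 0.011 over all genes. With Dox+4μ8c, 2 of 7 (Relb and Tnfaip3) were above untreated in both experiments (23.9% of all genes) and 1 of 7 (Rela) was below it (28.9%), with medians of 0.017 over the 7 genes and -0.0018 over all. Compared with Dox, 3 of 7 (Nfkb2, Nfkbia and Traf2) were lower with Dox+4μ8c in both experiments (26.9% of all genes) and 0 of 7 were higher (19.0%), with medians of -0.077 and -0.014. A gene with equal values on the 2 arrays compared in experiment 1 counted in neither direction, which lowers these shares of all genes. Nfkbia was so tied between Dox+4μ8c and untreated, and Relb and Tnfaip3 between Dox+4μ8c and Dox. No gene of the family was tied between Dox and untreated, so that its counts there and those shares are not fully alike. Dox and Dox+4μ8c were compared with the same untreated arrays, and members of a family chosen together are not independent. Dox against untreated and Dox+4μ8c against Dox also share the Dox arrays, so that a high Dox array raises the former and lowers the latter.

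**Figure D1:**
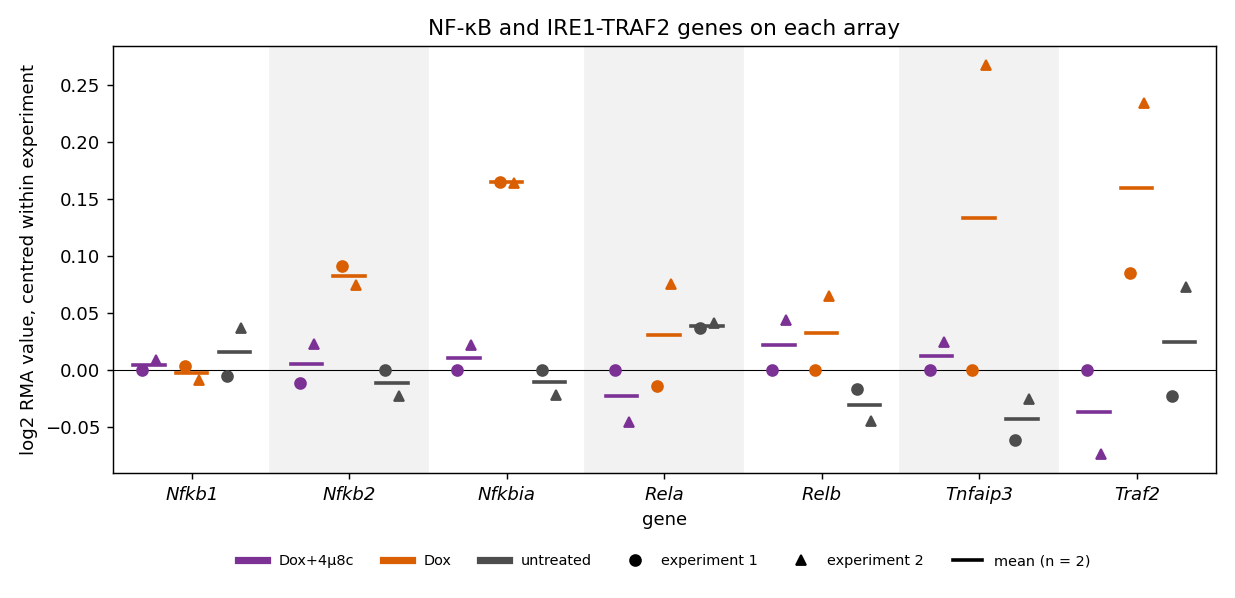
Centred log2 values of the 7 genes (x axis) on each of the 6 arrays (y axis), with Dox+4μ8c, Dox and untreated side by side, circles for experiment 1, triangles for experiment 2 and bars for the mean of 2 arrays. Within each experiment the Dox value of Nfkbia, Nfkb2 and Traf2 is the highest of the 3, and Dox in experiment 2 stands out for Tnfaip3 (0.27) and Traf2 (0.23).

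Nfkbia, which encodes the inhibitor IκBα, showed the most even pattern. Its values in experiments 1 and 2 were 0 and 0.022 with Dox+4μ8c, 0.17 and 0.16 with Dox, and 0 and -0.022 in untreated cells. Within each experiment the Dox array was the highest, and the Dox+4μ8c and untreated arrays differed by 0 and 0.044. Dox exceeded untreated by 0.18 (SE 0.046, 95% interval 0.064 to 0.29, unadjusted p = 0.0082, adjusted p = 0.087), a fold change of 1.13, which did not pass. The value was between 0.16 and 0.19 with any array left out, and the adjusted p lay between 0.057 and 0.43 over 13 alternative settings. Dox+4μ8c was below Dox, with a difference of -0.15 (SE 0.046, 95% interval -0.27 to -0.042, unadjusted p = 0.015, adjusted p = 0.24), and its difference from untreated was 0.022 (95% interval -0.090 to 0.13, adjusted p = 0.86). Nfkbia thus had its highest values with Dox in both experiments, but by an amount that did not pass over all genes.

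Tnfaip3 encodes A20, which limits NF-κB signalling by editing ubiquitin chains. Its values were 0 and 0.025 with Dox+4μ8c, 0 and 0.27 with Dox, and -0.061 and -0.025 in untreated cells. In experiment 1 the Dox+4μ8c and Dox arrays did not differ at all, and the high value came from Dox replicate 2, the array with the largest SD in experiment 2. The difference between Dox and untreated was 0.18 (SE 0.071, 95% interval 0.0045 to 0.35, unadjusted p = 0.046, adjusted p = 0.24), with 0.061 in experiment 1 and 0.29 in experiment 2. It was 0.058 without Dox replicate 2, and 0.30 without Dox replicate 1, the only setting in which a gene of the family passed (adjusted p = 0.022). Dox+4μ8c differed from Dox by -0.12 (adjusted p = 0.59; -0.24 without Dox replicate 1, -0.0028 without Dox replicate 2) and from untreated by 0.056 (adjusted p = 0.76).

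The precursor gene Nfkb2, whose product p100 is processed to p52 in the non-canonical branch, was at -0.011 and 0.023 with Dox+4μ8c, 0.091 and 0.074 with Dox, and 0 and -0.023 in untreated cells. As for Nfkbia, the Dox array was the highest in each experiment, with a difference from untreated of 0.094 (SE 0.047, 95% interval -0.020 to 0.21, adjusted p = 0.34). Dox+4μ8c differed from Dox by -0.077 (95% interval -0.19 to 0.037, adjusted p = 0.61) and from untreated by 0.017 (95% interval -0.097 to 0.13, adjusted p = 0.90). Relb, the partner of p52, was at 0 and 0.044 with Dox+4μ8c, 0 and 0.065 with Dox, and -0.017 and -0.044 in untreated cells. Here both treated groups were above untreated in each experiment, by 0.053 with Dox+4μ8c (adjusted p = 0.67) and 0.063 with Dox (adjusted p = 0.52). With 1 array left out these ran from 0.012 to 0.094 and from 0.022 to 0.10, each lowest without untreated replicate 2 and highest without untreated replicate 1. The difference between them was -0.010 (95% interval -0.13 to 0.11, adjusted p = 0.96).

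Of the subunits of the canonical p65/p50 dimer, Rela was at 0 and -0.046 with Dox+4μ8c, -0.014 and 0.076 with Dox, and 0.037 and 0.041 in untreated cells. Dox was below untreated in experiment 1 and above it in experiment 2, and the mean difference was -0.0084 (SE 0.053, 95% interval -0.14 to 0.12, adjusted p = 0.95). Dox+4μ8c was below untreated in both experiments, with a mean difference of -0.062 (95% interval -0.19 to 0.066, adjusted p = 0.63), and differed from Dox by -0.054 (adjusted p = 0.74). Nfkb1 varied least, with 0 and 0.009 with Dox+4μ8c, 0.0039 and -0.009 with Dox, and -0.0052 and 0.037 in untreated cells. Its differences from untreated were -0.012 with Dox+4μ8c (95% interval -0.12 to 0.10, adjusted p = 0.93) and -0.019 with Dox (95% interval -0.13 to 0.095, adjusted p = 0.85). Dox+4μ8c and Dox differed by 0.0070 (adjusted p = 0.97), and the signs of the 3 Nfkb1 differences turned under quantile normalization of the arrays.

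Traf2 encodes the adaptor that binds IRE1. It was at 0 and -0.073 with Dox+4μ8c, 0.085 and 0.23 with Dox, and -0.023 and 0.073 in untreated cells. Within each experiment the Dox array was the highest, whereas the order of Dox+4μ8c and untreated turned between the experiments. Dox+4μ8c was below Dox in both experiments, with a mean difference of -0.20 (SE 0.065, 95% interval -0.35 to -0.039, unadjusted p = 0.022, adjusted p = 0.30), with -0.085 and -0.31 in experiments 1 and 2. This was the largest difference of the 7 genes in any comparison, and it was -0.098 without Dox+4μ8c replicate 2 and -0.13 without Dox replicate 2. Dox differed from untreated by 0.13 (SE 0.065, 95% interval -0.023 to 0.29, adjusted p = 0.33), with 0.066 without Dox replicate 2 and 0.20 without Dox replicate 1, and Dox+4μ8c by -0.062 (95% interval -0.22 to 0.096, adjusted p = 0.71).

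**Figure D2:**
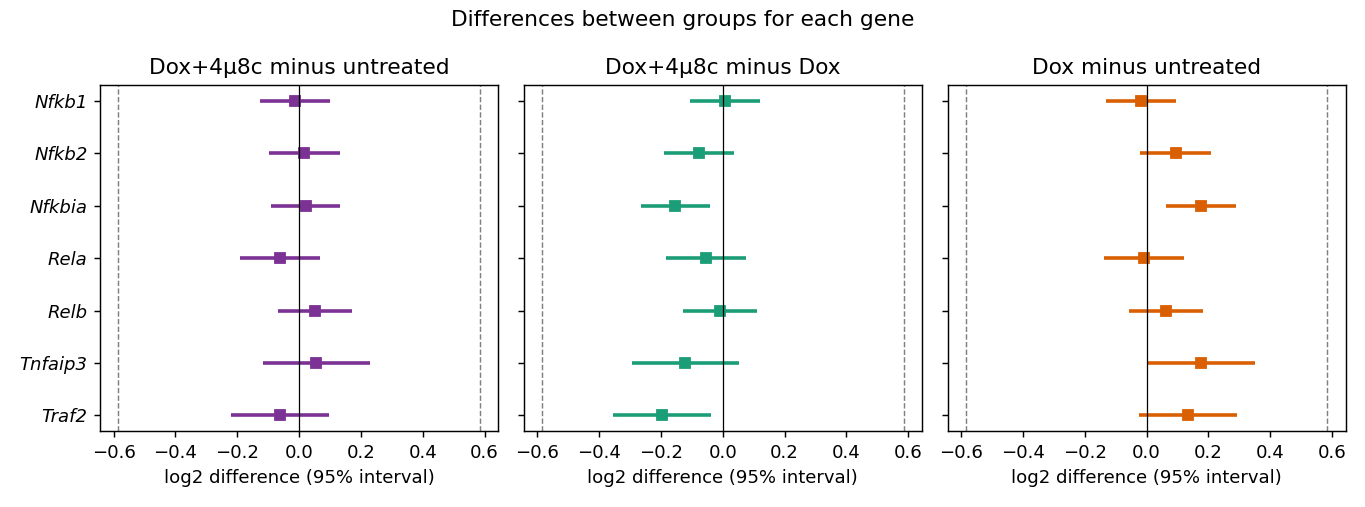
Log2 differences (x axis, squares) of each of the 7 genes (y axis) with 95% intervals from limma, for Dox+4μ8c minus untreated, Dox+4μ8c minus Dox and Dox minus untreated. The dashed lines mark a 1.5 fold change, which no interval reaches, and 0 lies outside the intervals of Nfkbia (-0.27 to -0.042) and Traf2 (-0.35 to -0.039) for Dox+4μ8c minus Dox and of Nfkbia (0.064 to 0.29) and Tnfaip3 (0.0045 to 0.35) for Dox minus untreated.

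**Figure D3:**
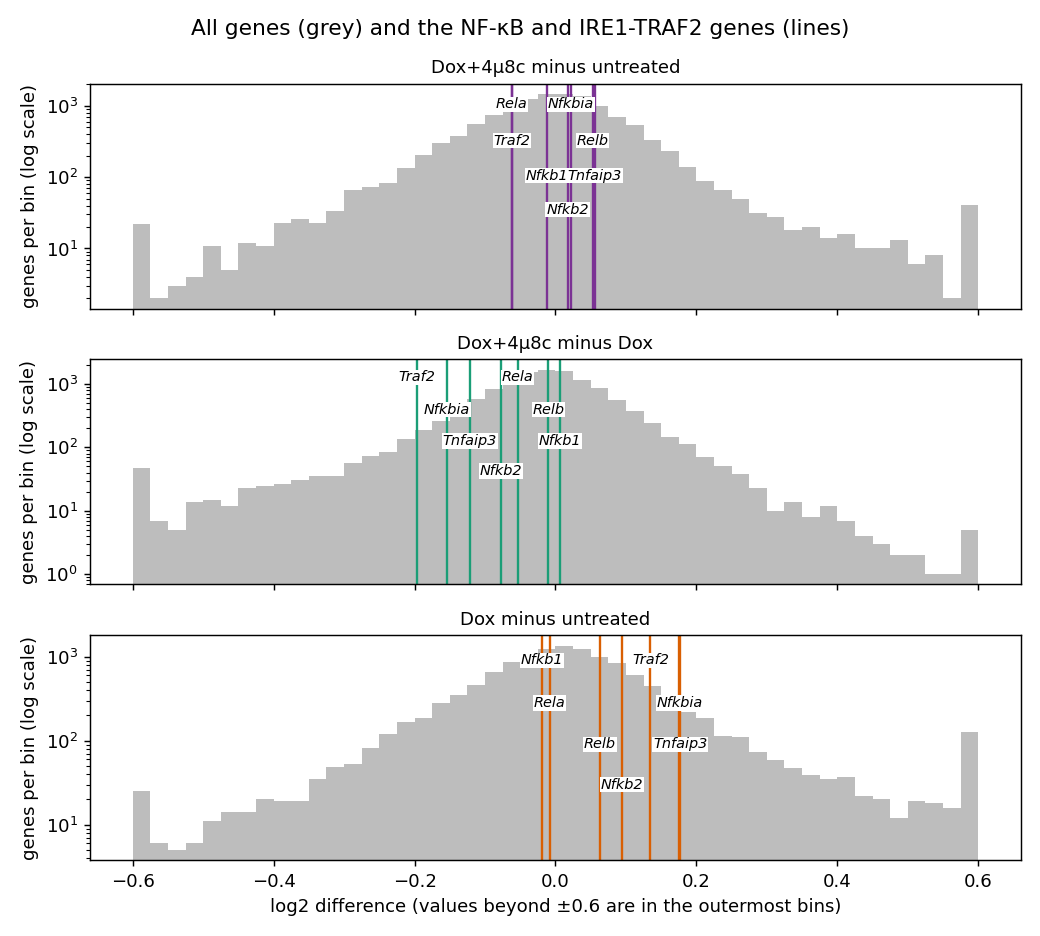
Distribution of the log2 differences of all 12603 genes (grey bars, number of genes on a log axis, values beyond 0.6 in the outermost bins) with a line for each of the 7 genes, for the same comparisons. The lines lie within the body of each distribution, between -0.062 and 0.056 for Dox+4μ8c minus untreated, -0.20 and 0.0070 for Dox+4μ8c minus Dox, and -0.019 and 0.18 for Dox minus untreated.

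The promoters of the genes were read for the consensus sequence that NF-κB binds. The NF-κB consensus, 10 letters long, was searched on both strands in the 250 bases before the RefSeq start of each gene (GRCr8), with overlapping matches counted as 1. It was found in 6.33% of 33469 promoters. Of the 7 measured genes, 6 were in the promoter table (not Relb), and 3 of them held a match, namely Nfkbia, Tnfaip3 and Nfkb2. Nfkb1, Rela and Traf2 held none in this window, and of the genes without a usable probeset Cxcl1 held 1 and Map3k5 none. The stretches are shown only for genes with a match, the 3 measured genes and the chemokine genes Cxcl2 and Cxcl10, described with the targets. They run in the sense of the gene, with matches in capitals:
Nfkbia (GRCr8 chr6:78597073-78597322, minus strand): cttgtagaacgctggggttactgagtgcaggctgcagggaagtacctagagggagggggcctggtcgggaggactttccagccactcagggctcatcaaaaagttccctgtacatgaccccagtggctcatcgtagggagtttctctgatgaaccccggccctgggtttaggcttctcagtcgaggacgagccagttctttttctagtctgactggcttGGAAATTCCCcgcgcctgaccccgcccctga
Tnfaip3 (GRCr8 chr1:15543980-15544229, minus strand): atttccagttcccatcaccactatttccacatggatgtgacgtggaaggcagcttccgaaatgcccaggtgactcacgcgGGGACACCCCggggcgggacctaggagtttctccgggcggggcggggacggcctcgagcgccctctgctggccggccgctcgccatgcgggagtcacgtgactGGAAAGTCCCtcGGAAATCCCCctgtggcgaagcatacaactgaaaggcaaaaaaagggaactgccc
Nfkb2 (GRCr8 chr1:255108124-255108373, plus strand): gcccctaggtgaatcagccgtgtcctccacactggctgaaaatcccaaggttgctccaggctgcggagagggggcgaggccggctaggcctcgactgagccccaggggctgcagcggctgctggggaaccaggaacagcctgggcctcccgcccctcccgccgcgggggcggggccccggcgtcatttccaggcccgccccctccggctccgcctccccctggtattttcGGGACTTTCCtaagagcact
Cxcl2 (GRCr8 chr14:17467256-17467505, minus strand): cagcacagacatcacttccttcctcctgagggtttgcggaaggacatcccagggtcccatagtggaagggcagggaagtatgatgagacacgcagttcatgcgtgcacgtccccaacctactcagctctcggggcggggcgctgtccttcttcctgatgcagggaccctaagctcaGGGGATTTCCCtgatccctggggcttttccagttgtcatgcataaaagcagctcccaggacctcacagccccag
Cxcl10 (GRCr8 chr14:15988816-15989065, plus strand): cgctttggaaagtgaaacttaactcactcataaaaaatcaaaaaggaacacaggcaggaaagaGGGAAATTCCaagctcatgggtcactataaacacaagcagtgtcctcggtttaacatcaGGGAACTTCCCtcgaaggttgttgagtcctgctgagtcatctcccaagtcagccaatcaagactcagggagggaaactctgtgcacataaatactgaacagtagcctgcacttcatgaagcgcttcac
The match in Nfkbia lies from base -31 to -22 relative to the start and that in Nfkb2 from -20 to -11. Tnfaip3 holds 3, the last of them from -55 to -46, Cxcl2 a run of overlapping matches from -74 to -64, and Cxcl10 2, from -187 to -178 and from -128 to -118. A match is a description of the letters and does not show that the factor was bound. The 3 measured genes with a match differed between Dox and untreated by 0.18 (Nfkbia), 0.18 (Tnfaip3) and 0.094 (Nfkb2), and the 3 without by 0.13 (Traf2), -0.0084 (Rela) and -0.019 (Nfkb1), with none past the test. Whether a match goes with a difference was not tested. The genes of the pathway and target lists that passed with Dox were read likewise. Il1r1, which fell with Dox (-0.44), held 1 match, from -135 to -126. Cxcl2, which rose (0.48), held the run given above, whereas Xbp1 and Icam1, which rose (0.30 and 0.455), held none. Jun, Cd40, Ikbkb and Ier3 were not in the promoter table.

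Around these genes, 43 others of the NF-κB pathway were listed and 36 measured. With Dox against untreated 2 rose (4.42% of all genes did) and 1 fell (2.01%), and the median was -0.0024, against 0.011 over all genes. The gene that fell was Il1r1, the receptor of interleukin-1β, with values of 0 and -0.11 with Dox+4μ8c, -0.31 and -0.40 with Dox, and 0.065 and 0.11 in untreated cells. Within each experiment the Dox array was the lowest, and the difference from untreated was -0.44 (SE 0.057, adjusted p = 0.0091). It ran from -0.52 to -0.37 with 1 array left out. Its difference between Dox+4μ8c and Dox was 0.30 (SE 0.057, adjusted p = 0.070), which did not pass, and ran from 0.25 to 0.35 with 1 array left out. Cd40, a receptor of the TNF receptor family that signals through TRAF proteins, was at 0 and 0.16 with Dox+4μ8c, 0.14 and 0.13 with Dox, and -0.30 and -0.13 in untreated cells. Both treated arrays were above the untreated one in each experiment. The rise with Dox was 0.36 (SE 0.061, adjusted p = 0.023), whereas that with Dox+4μ8c, at 0.30 (adjusted p = 0.071), did not pass, and the difference between them was -0.057 (95% interval -0.20 to 0.090, adjusted p = 0.76). With 1 array left out the rise ran from 0.27 to 0.44 with Dox and from 0.26 to 0.35 with Dox+4μ8c. The rise of Cd40 with Dox did not pass without the experiment as a term (adjusted p = 0.067) or after quantile normalization (adjusted p = 0.16).

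The other gene of this list that rose was Ikbkb, which encodes IKKβ, the kinase that marks IκBα for degradation. It was at 0 and 0.031 with Dox+4μ8c, 0.13 and 0.19 with Dox, and -0.093 and -0.026 in untreated cells, so that the Dox array was the highest in each experiment. The rise with Dox was 0.22 (SE 0.046, adjusted p = 0.046), close to the cut-off, and ran from 0.21 to 0.23 with 1 array left out. It did not pass without the experiment as a term (adjusted p = 0.057) or after quantile normalization (adjusted p = 0.14). Its 2 probesets gave mean rises of 0.21 and 0.22 but disagreed within each experiment, with 0.11 and 0.33 in experiment 1 and 0.32 and 0.11 in experiment 2, so that their average is more even between experiments than either probeset. Dox+4μ8c differed from Dox by -0.14 (adjusted p = 0.28). The other 7 genes of the kinase complexes, among them Chuk (IKKα), Tbk1 and Map3k7 (TAK1), had differences that did not pass in any comparison. With Dox+4μ8c 0 of the 36 genes passed against untreated (1.17% of all genes rose and 1.13% fell), with 1 higher and 5 lower at an unadjusted p under 0.05 in limma (6.27% and 9.15% of all genes). Against Dox 0 of 36 passed (0.175% of all genes were higher and 1.61% lower), with 1 higher and 5 lower at an unadjusted p under 0.05 (2.79% and 8.44%). The medians were -0.013 and -0.036. Of the 4 other Rel and IκB genes, including Nfkbiz and Bcl3, 0 passed in any comparison, as did 0 of 9 adaptors and 0 of 10 genes of the ubiquitin machinery. Among the genes with the smallest p, the TNF receptor gene Tnfrsf1a was at a difference of -0.28 between Dox+4μ8c and Dox (SE 0.050, adjusted p = 0.056) and of -0.21 from untreated (adjusted p = 0.10). Traf5, another TRAF adaptor, differed by -0.22 from Dox (adjusted p = 0.13) and by -0.25 from untreated (adjusted p = 0.077).

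On the route from IRE1 to JNK and p38, 28 genes were listed and 21 measured, without Ern1, which encodes IRE1 itself. None of the 9 kinase genes passed in any comparison, among them the JNK genes Mapk8 and Mapk9 and the p38 gene Mapk14, with differences between -0.16 and 0.13. Jun, the transcription factor that JNK phosphorylates, was at 0 and 0.0022 with Dox+4μ8c, 0.36 and 0.49 with Dox, and -0.068 and -0.0022 in untreated cells. Within each experiment the Dox array was the highest by far. Jun rose with Dox by 0.46 (SE 0.052, 95% interval 0.34 to 0.59, adjusted p = 0.0063), and it was lower with Dox+4μ8c than with Dox (-0.43, SE 0.052, adjusted p = 0.022). Its difference between Dox+4μ8c and untreated was 0.036 (95% interval -0.090 to 0.16, adjusted p = 0.79). The 3 Jun probesets gave 0.43, 0.43 and 0.53 with Dox. With 1 array left out the rise ran from 0.41 to 0.51 and the difference from Dox from -0.475 to -0.378. The difference from Dox did not pass after quantile normalization (adjusted p = 0.10).

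Xbp1, whose mRNA is spliced by the endoribonuclease of IRE1, was at 0.14 and 0.19 with Dox+4μ8c, 0 and 0.11 with Dox, and -0.38 and -0.11 in untreated cells. It was higher than untreated by 0.41 with Dox+4μ8c (SE 0.063, adjusted p = 0.033) and by 0.30 with Dox (SE 0.063, adjusted p = 0.046). The difference between the treated groups was 0.11 (95% interval -0.041 to 0.26, adjusted p = 0.58), and the array does not tell spliced from unspliced mRNA here. The call with Dox was lost with each array centred on its median (adjusted p = 0.055). It was also lost without the experiment as a term (adjusted p = 0.13) and after quantile normalization (adjusted p = 0.23). The call with Dox+4μ8c was lost without the experiment as a term (adjusted p = 0.13) and after quantile normalization (adjusted p = 0.068). With 1 array left out the difference from untreated ran from 0.21 to 0.39 with Dox and from 0.32 to 0.50 with Dox+4μ8c. Dusp10, a phosphatase of JNK and p38, was at 0 and -0.17 with Dox+4μ8c, -0.015 and -0.30 with Dox, and 0.16 and 0.29 in untreated cells. Both treated arrays were below the untreated one in each experiment, with differences of -0.31 (adjusted p = 0.18) and -0.38 (SE 0.096, adjusted p = 0.078) with Dox+4μ8c and with Dox that did not pass. With Dox the difference was -0.51 without Dox replicate 1 and -0.55 without untreated replicate 1, but -0.25 without Dox replicate 2 and -0.20 without untreated replicate 2. For Dox+4μ8c against untreated it was -0.48 and -0.13 without untreated replicates 1 and 2. Bak1, an apoptosis effector whose product binds IRE1, differed with Dox+4μ8c by -0.17 from untreated (adjusted p = 0.40) and by -0.16 from Dox (adjusted p = 0.56). Of the 21 genes 1 rose and 0 fell with Dox+4μ8c against untreated (1.17% and 1.13% of all genes), 0 were higher and 1 lower with Dox+4μ8c than with Dox (0.175% and 1.61%), and 2 rose and 0 fell with Dox against untreated (4.42% and 2.01%). The medians were -0.023, -0.0085 and -0.019.

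**Figure D4:**
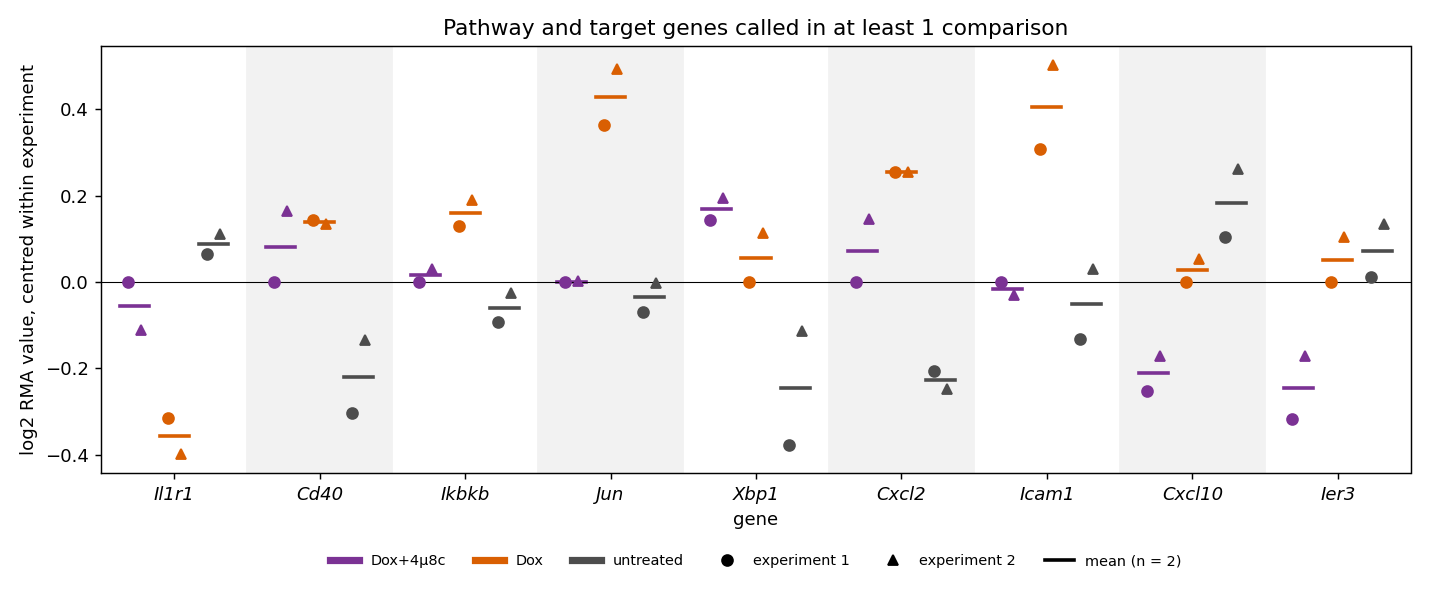
Centred log2 values (y axis) on each array of the 9 genes of the pathway and target lists that passed in at least 1 comparison (x axis), with Dox+4μ8c, Dox and untreated side by side, circles for experiment 1, triangles for experiment 2 and bars for the mean of 2 arrays. Within each experiment Jun and Icam1 are highest with Dox (0.36 and 0.49, 0.31 and 0.50), whereas Cxcl10 and Ier3 are lowest with Dox+4μ8c.

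Since Cxcl1 and Ccl2 could not be read, 30 other genes that NF-κB can induce were listed as its output, of which 22 were measured. With Dox 2 of 22 rose and 0 fell, where 4.42% of all genes rose and 2.01% fell, and the median was 0.0011, against 0.011 over all genes. Cxcl2, a neutrophil chemokine like Cxcl1, was at 0 and 0.15 with Dox+4μ8c, 0.25 and 0.26 with Dox, and -0.21 and -0.25 in untreated cells. Within each experiment Dox was highest, Dox+4μ8c came next and untreated was lowest. Cxcl2 rose with Dox by 0.48 (SE 0.060, 95% interval 0.34 to 0.63, adjusted p = 0.0085), a fold change of 1.40. The rise ran from 0.42 to 0.54 with 1 array left out. With Dox+4μ8c it was above untreated by 0.30 (SE 0.060, adjusted p = 0.070). It differed from Dox by -0.18 (adjusted p = 0.30), and neither difference passed. Icam1, an adhesion molecule for leukocytes, was at 0 and -0.031 with Dox+4μ8c, 0.31 and 0.50 with Dox, and -0.13 and 0.031 in untreated cells. It rose with Dox by 0.455 (SE 0.067, adjusted p = 0.014), and with Dox+4μ8c it was lower than with Dox (-0.42, SE 0.067, adjusted p = 0.041). Dox+4μ8c and untreated differed by 0.035 (95% interval -0.13 to 0.20, adjusted p = 0.85). With 1 array left out the rise of Icam1 ran from 0.39 to 0.52 and its difference from Dox from -0.52 to -0.32. After quantile normalization neither passed (adjusted p = 0.053 and 0.13).

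Other genes of this list were lowest with Dox+4μ8c. Cxcl10, a chemokine for T cells that interferon also induces, was at -0.25 and -0.17 with Dox+4μ8c, 0 and 0.054 with Dox, and 0.11 and 0.26 in untreated cells. It fell with Dox+4μ8c against untreated (-0.39, SE 0.050, adjusted p = 0.021), whereas the differences of -0.24 from Dox (adjusted p = 0.096) and of -0.16 between Dox and untreated (adjusted p = 0.15) did not pass. Ier3, an early response gene linked to cell survival, was at -0.32 and -0.17 with Dox+4μ8c, 0 and 0.10 with Dox, and 0.012 and 0.13 in untreated cells. Dox was slightly below untreated in both experiments (-0.012 and -0.030), with a mean difference of -0.021 (95% interval -0.13 to 0.091, adjusted p = 0.83). Ier3 was lower with Dox+4μ8c than in untreated cells (-0.32, SE 0.046, adjusted p = 0.030) and than with Dox (-0.30, SE 0.046, adjusted p = 0.039). With 1 array left out the differences of Dox+4μ8c from untreated ran from -0.44 to -0.35 for Cxcl10 and from -0.33 to -0.30 for Ier3. That of Ier3 from Dox ran from -0.31 to -0.28. With Dox+4μ8c 0 of the 22 genes rose and 2 fell against untreated (1.17% and 1.13% of all genes did). Against Dox 0 were higher and 2 lower (0.175% and 1.61% of all genes). The medians were 0.014 and -0.044, against -0.0018 and -0.014 over all genes. When the arrays were quantile normalized, Jun with Dox and Cxcl10 with Dox+4μ8c were the only genes of the pathway and target lists that passed against untreated, and 0 passed between Dox+4μ8c and Dox. That setting also rescales the differences, as given above for Trib3. Without the experiment as a term, Il1r1, Jun, Cxcl2 and Icam1 passed with Dox, 0 with Dox+4μ8c against untreated, and Jun between Dox+4μ8c and Dox.

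The cytokine genes Il1a, Il1b, Tnf, Csf1 and Csf2 lay between -0.14 and 0.070 in all 3 comparisons, and 0 of 5 passed. Nos2 and Sod2, the inducible nitric oxide synthase and the mitochondrial superoxide dismutase, lay between -0.071 and 0.023. Bcl2, Bcl2l1, Fas and Ccnd1 did not pass either. Markers of other cells were read beside these genes, although the cells were a single clone of an insulinoma line. Of 6 markers of immune cells, 3 were measured (Cd68, Itgam and Lyz2), and their differences lay between -0.11 and 0.19 with 0 past the test in any comparison. Of 7 markers of stroma and endothelium, 3 were measured, with differences between -0.31 and 0.31 and 0 past the test. Of 8 β-cell markers, 2 fell with Dox (2.01% of all genes did) and 0 rose (4.42%). The 2 that fell were Mafa and Iapp (-0.56 and -0.25, adjusted p = 0.0090 and 0.041), and Dox+4μ8c exceeded Dox in Mafa (0.62, adjusted p = 0.019). The others did not pass with Dox. Their differences were -0.17 for Slc2a2, -0.13 for Ins2, -0.093 for Pdx1 and for Chga, -0.031 for Ins1 and 0.090 for Nkx6-1. The median of the 8 with Dox was -0.11, against 0.011 over all genes. Of 6 markers of α- and δ-cells, 2 were measured, and the glucagon gene Gcg fell in both treated groups, by a difference of -1.36 with Dox+4μ8c (adjusted p = 0.0061) and -2.22 with Dox (adjusted p = 0.00072), with 0.86 between Dox+4μ8c and Dox (adjusted p = 0.021), whereas Irx2 did not pass. Whether they go with the results on Jun, Icam1 and Il1r1 was not tested. In bulk RNA of this clone a change in every cell and a change in some of the cells cannot be told apart.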

How the data were processed

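Centred log2 values of 25476 probesets on 6 arrays were used. The authors deposited log2 values that their processing notes credit to RMA, with no version given, from 200 ng of total RNA per sample, and the rule by which probesets were kept is not given in the sources used here. Probesets with exactly 1 symbol in the platform annotation (17978) were averaged per gene. The gene symbols were chosen, and the lists and tests written, with earlier results of these data known. The test was two-sided, with lmFit and eBayes of limma (version 3.58.1, R version 4.3.3), for 3 contrasts with a term for the experiment (2 residual and 4.25 prior degrees of freedom). The pairing of same-numbered arrays rests on the independent experiments of the methods and on the centring. Their deviations from the group means correlated over genes with r = 0.03 (Dox+4μ8c and Dox), 0.1 (Dox+4μ8c and untreated) and 0.03 (Dox and untreated), which the centring makes uninformative. P-values rest on how far the differences between groups varied between the 2 experiments, with the spread of each gene drawn towards that of all genes. Named were the 7 genes, up to 6 passing genes per list and contrast (or the 2 with the smallest p where fewer than 2 passed), and Dnajb9, Trib3, Ins1, Ins2, Xbp1 and Ern1 (not measured). Cell markers and other list members were named as examples of their groups after their values were seen. Ins1 and Ins2 did not pass (differences -0.13 to 0.09). The procedure was tested on simulated data. The number of arrays limits the precision. Figures used Python 3.11.15 with matplotlib 3.10.9.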

Additional observations from a re-analysis of the deposited data

How the results depend on the processing

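None of the 7 genes passed in any comparison under the 7 settings that kept all arrays: no replicate block, arrays centred on their medians, quantile normalization, the median over probesets, no _x_at or _s_at probesets, robust eBayes, and, added after the ties had been seen, no probesets equal on all arrays of experiment 1. With 1 array left out the number was 0 to 1 with Dox against untreated, and 0 in the other comparisons. Of the 79 listed genes, 7, 3 and 3 passed for Dox against untreated, Dox+4μ8c against untreated and Dox+4μ8c against Dox (of all genes 810, 290 and 225). With no replicate block 440, 0 and 143 of all genes passed, and after quantile normalization 229, 185 and 1. The listed genes became 4, 0 and 1 with no replicate block, so that without the pairing by experiment Cd40, Ikbkb and Xbp1 did not pass with Dox, no gene passed with Dox+4μ8c against untreated (12 at an unadjusted p under 0.05 in limma), and Jun alone passed against Dox. They became 1 (Jun), 1 (Cxcl10) and 0 (12 at an unadjusted p under 0.05) with quantile normalization, which also rescales the differences of arrays that were centred differently. With 1 array left out they ranged from 1 to 13, 0 to 7 and 0 to 6. In such fits the group with 1 array left is assumed to vary like the others. The number of all genes that passed also changed widely with the array left out. The ranges of the listed genes therefore do not set these genes apart from all genes. No difference that had passed changed its sign. Under quantile normalization the signs of some small differences turned, to give, for Nfkb1, 0.0242 (Dox against untreated), 0.0104 (Dox+4μ8c against untreated) and -0.0138 (against Dox), for Nfkb2 -0.0162 (Dox+4μ8c against untreated), for Relb 0.0068 and for Trib3 0.0672 (both against Dox). With 1 array left out, the values of Dox against untreated ranged from -0.0408 to 0.0036 (Nfkb1), -0.0638 to 0.047 (Rela), -0.0851 to 0.0283 (Traf5) and -0.17 to 0.13 (Bak1). Those of Dox+4μ8c against untreated ranged from -0.0338 to 0.0106 (Nfkb1), -0.0097 to 0.044 (Nfkb2), -0.0078 to 0.12 (Tnfaip3), -0.16 to 0.0364 (Traf2), -0.0119 to 0.0845 (Jun) and -0.0691 to 0.14 (Icam1). Those of Dox+4μ8c against Dox ranged from -0.0123 to 0.0264 (Nfkb1), -0.11 to 0.0017 (Rela), -0.0383 to 0.018 (Relb), -0.14 to 0.0305 (Cd40), -0.0594 to 0.20 (Dusp10) and -0.24 to 0.0745 (Trib3). The cause was not tested. Filters on dim probesets could not be applied to centred values.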
